A study of Mus musculus with 8 samples.

Results

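Regulatory T (Treg) cells that lacked Brg1 were taken from mice with the reversible knockout (rKO1 mice) either without tamoxifen (TAM) or on day 7 after TAM, and each condition was sequenced as 1 library. These are 2 of the 8 libraries of the study, which also hold 4 of other total Treg cells (WT, both cell types of mosaic females, and Brg1-reexpressed cells after TAM) and 2 labelled aTreg, not used here. Both came from CD4+CD25+YFP+ cells of spleen and lymph nodes (LN) of mice aged 3 to 4 weeks, with the strain labelled C57BL/6. Both libraries started from the same number of cells. In both, the genotype was labelled R26CAG-FlpoER, BrgF/deltaR, Foxp3YFP-Cre/YFP-Cre. Cre, driven by the Foxp3 locus, deletes the floxed (F) Brg1 allele in Treg cells. The deltaR allele carries a gene trap with GFP and is null until the Flpo recombinase, fused to a TAM-binding domain and expressed from R26, removes the trap. The other total Treg libraries were labelled R26CAG-FlpoER with BrgF/+, Foxp3YFP-Cre/+ (WT), BrgF/ΔR, Foxp3+/+ (mosaic Brg1-sufficient), BrgF/ΔR, Foxp3YFP-Cre (mosaic Brg1-deleted) or BrgF/+, Foxp3YFP-Cre/YFP-Cre (Brg1-reexpressed). A low dose of TAM reverses the allele in part of the Treg cells, which lose GFP. The GFP+ cells sorted after TAM are those that stayed Brg1-deleted beside Brg1-reexpressed neighbours in the same animals. The comparison asks whether such bystander cells differ from Brg1-deleted cells of mice in which no Treg cell regained Brg1. The rKO1 mice are those with the more severe inflammation among the reversible knockout mice, and both groups share Cre, FlpoER and the trapped allele. The number of mice behind a library and a vehicle for the untreated mice were not given in the sources used here. The GFP gate applied after TAM, TAM itself, the elapsed days and the presence of reexpressed cells cannot be told apart in this pair. The paper states that the deltaR mice came from a mixed background and were crossed back to C57BL/6 for 3 generations. A difference in strain background between the animals of the 2 libraries was not tested.

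Brg1, encoded by Smarca4, is the ATPase of the BAF chromatin remodelling complex, which opens nucleosomal DNA for transcription factors. Treg cells are CD4 T cells that hold back other immune cells, and most are resting until antigen and cytokines turn them into effector cells with chemokine receptors, costimulatory receptors and granzymes. The resting state is kept by factors such as Bach2, Klf2 and Tcf7, and Foxp3, the factor that defines the lineage, holds back most helper T cell cytokines.

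The unit of the files is FPKM, a count of fragments divided by exon length and by a scaled library total. Of 53465 gene identifiers, 12469 reached 1 FPKM in either library and lay outside the X and Y chromosomes. These genes were compared, and paired values are given untreated first and after TAM second. At the filter, Pfkfb3 was just inside with 0.874 FPKM untreated and 1.00007 after TAM, and Gm38158 was just outside with 0.999 and 0.885. The FPKM values give back 15363769 whole reads on genes for the untreated library and 15613620 for the library after TAM, within the range of 15363769 to 22790967 over the 6 libraries of total Treg cells. Fold changes below are ratios of FPKM with the 95% interval of the reads, exact binomial, which covers counting error only, since reads without molecular identifiers are not independent molecules. Log2 changes are on log2(FPKM + 0.1). With 1 library a side no difference has a replicate check, and no test was made.

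The labels and the sex-linked genes did not match. Both libraries are labelled with 2 YFP-Cre copies of the X-linked Foxp3 locus, the female form. The Y-linked genes Eif2s3y, Ddx3y, Uty and Kdm5d summed to 4155 reads in the untreated library and 2083 after TAM. They had 0 reads in the WT and both mosaic libraries. Xist, the RNA of the inactive X chromosome, had 10 and 934 reads. The untreated library therefore held RNA of male cells and hardly any Xist, while the library after TAM held both. All genes of X and Y were left out, 391 of them at the filter, but the 2 libraries also differ in sex-linked RNA, and the sex of the animals and TAM cannot be told apart for any gene below.

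Most genes lay close in the pair. Of the 12469 genes, 622 (4.99%) were at least 2-fold higher after TAM and 745 (5.97%) at least 2-fold lower, or 11.0% together. The median log2 change was 0.0145 and the 5th and 95th percentiles were −1.12 and 0.999. Much of this was noncoding. Of 403 small RNA genes, 61.0% were 2-fold apart, with a median of 4 reads in the larger library. Among 9503 protein-coding genes, 266 (2.80%) were 2-fold higher and 210 (2.21%) 2-fold lower, 5.01% in all, and 84.8% lay within 1.5-fold. At 4-fold, 76 protein-coding genes were higher and 21 lower. By any size, 5102 were higher and 4401 lower. Scaling both libraries to the same FPKM sum shifts every log2 change by −0.12 and turns the counts of all genes into 472 higher and 870 lower, so that the balance of higher and lower genes rests on the scaling.

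Set beside 3 other pairs of single libraries, this pair had the smallest share of genes 2-fold apart. At the same filter and fold, 14.9% of 11915 genes differed between WT and mosaic Brg1-sufficient Treg cells, 20.7% of 12570 between untreated rKO1 and mosaic Brg1-deleted cells, and 17.8% of 12199 between Brg1-reexpressed and Brg1-deleted cells after TAM. The protein-coding shares in these pairs were 9.22%, 15.2% and 12.2%. The last 2 pairs each share a library with the pair described here, and the order of the shares was not tested.

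**Figure D1:**
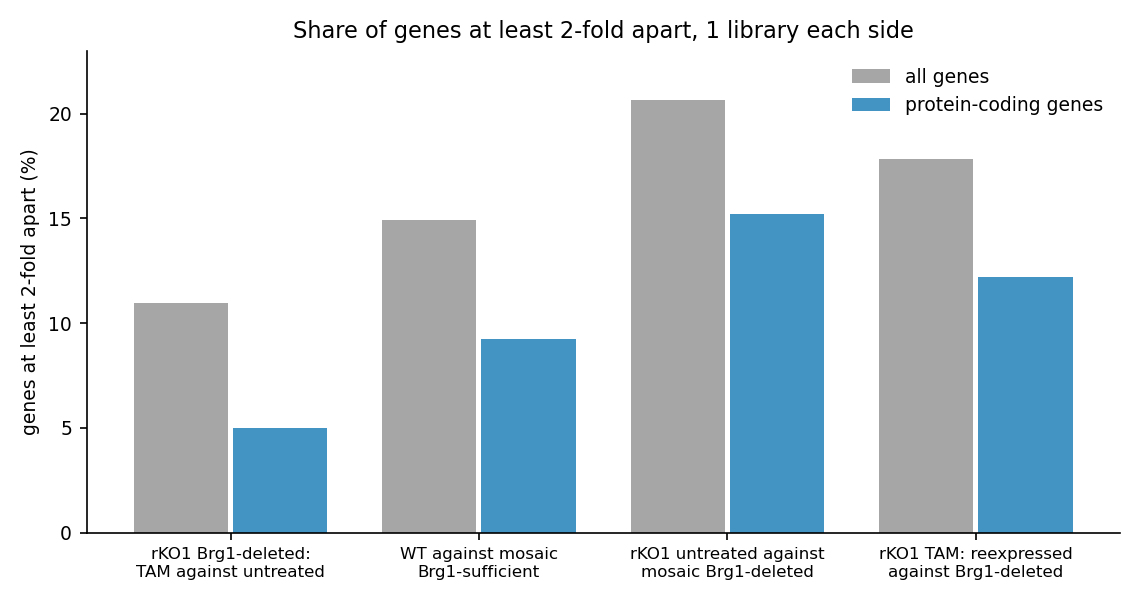
Percentage of genes at least 2-fold apart (y axis) in 4 pairs of libraries (x axis), for all genes at 1 FPKM or more in either library outside X and Y (grey) and for protein-coding genes (blue), with 1 library a side and so no error bars. The Brg1-deleted pair with and without TAM has the lowest bars, at 11.0% and 5.01%.

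Smarca4 (chr9:21616169-21704230 in GRCm38, as are all positions below, from GENCODE M21) was low in both libraries, at 7.34 FPKM untreated and 6.13 after TAM, close to the 7.44 of mosaic Brg1-deleted cells. It read 9.52 in reexpressed, 12.1 in mosaic Brg1-sufficient and 14.8 in WT cells. The value counts all exons, including those upstream of the trap, so it checks the labels only in part. No subunit of the BAF complexes was 2-fold apart. Of 24 genes with Smarca4, 12 were higher and 12 lower, with a median log2 change of −0.01. Bcl7a had the most negative difference, at 1.64 against 0.974 FPKM, and Actl6a the most positive, at 16.7 against 23.9.

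The cells carried the marks of Treg cells in both libraries. Foxp3, X-linked and outside the comparison, had 47.0 FPKM untreated and 29.2 after TAM, while Cd4 had 33.2 and 42.4 and Cd3e 48.6 and 27.6. Of 22 autosomal Treg identity and suppressor genes, 17 were lower after TAM and 5 higher, with a median log2 change of −0.24 against 0.03 over protein-coding genes, and 2 were 2-fold apart, against 5.01% of protein-coding genes. Il2ra, the high affinity receptor chain for interleukin-2, had 64.5 against 46.9 FPKM, Ikzf2, which encodes the transcription factor Helios, 89.3 against 59.7, and Izumo1r, the folate receptor 4 of Treg cells, 406 against 296. Areg, a growth factor that Treg cells release in tissue repair, was 5.16-fold higher (95% interval 3.91 to 6.90), with 2.88 FPKM untreated and 14.9 after TAM. Il12a, a chain of interleukin-35, was 3.25-fold lower (95% interval 2.05 to 5.36). The suppressor cytokine Il10 differed little, at 34.4 and 40.1 FPKM.

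**Figure D2:**
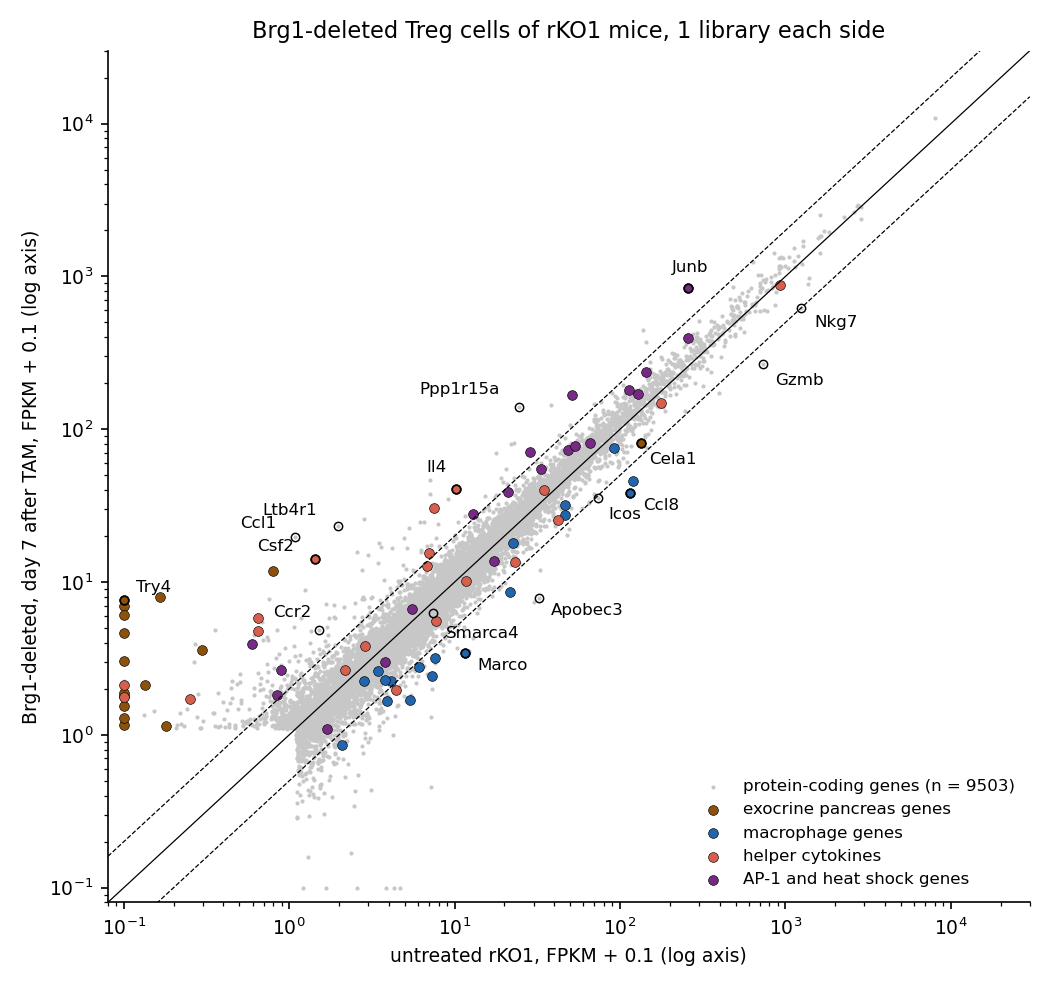
FPKM + 0.1 of 9503 protein-coding genes in the untreated library (x axis) and after TAM (y axis), both on log axes. The solid line is equality and the dashed lines are 2-fold. 5.01% of the genes lie beyond the dashed lines. Those above include some of the cytokines and AP-1 genes and most of the exocrine pancreas genes compared. Those below include some of the macrophage genes, Gzmb, Apobec3 and the cytokine Lif.

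The activation and effector genes lay on both sides. This list holds the genes the study itself named on these libraries, so it is not independent evidence of a direction. Of 14 names, Cxcr3 is X-linked and Ccr3 stayed under 1 FPKM. Among the 12 others, 3 were 2-fold higher and 2 were 2-fold lower, against 2.80% and 2.21% of protein-coding genes, and the median log2 change was −0.29. Of the 3, 1 was under 1 FPKM untreated. Gzmb (chr14:56258838-56262260), the serine protease granzyme B, had 730.5 FPKM untreated and 265 after TAM, with 18575 and 6347 reads, and was 2.75-fold lower (95% interval 2.68 to 2.83). Its level after TAM stayed above the 73.3 of mosaic Brg1-deleted cells and the 33.8 of WT cells, and far below the 1865 of the reexpressed cells from the same mice. Icos, a costimulatory receptor, was 2.08-fold lower (95% interval 1.97 to 2.19), at 73.6 against 35.4 FPKM. The inhibitory receptor Tigit had 97.9 against 61.3 and the lectin receptor Klrg1 40.4 against 30.5, both within 2-fold.

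The 3 chemokine receptors Ccr1, Ccr2 and Ccr10 lay on the other side. Ccr2, which guides cells to inflamed tissue, was 3.35-fold higher (95% interval 2.81 to 4.01), at 1.42 against 4.76 FPKM, and Ccr10, a skin homing receptor, was 3.12-fold higher (95% interval 2.24 to 4.41), at 1.60 against 5.01. Ccr1 was 4.44-fold higher (95% interval 2.59 to 8.04), at 0.339 against 1.504 FPKM. All 3 were below the reexpressed library, where they had 35.9, 32.6 and 3.24 FPKM. Ccr8 had 73.9 against 61.5, so that the receptors of the list did not share a direction.

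Granule genes other than Gzmb showed the same split. Nkg7, a membrane protein of cytotoxic granules, was 2.02-fold lower (95% interval 1.97 to 2.07), at 1249 against 619 FPKM, and Cst7, an inhibitor of granule cathepsins, had 356 against 236. Gzmk was 3.81-fold higher (95% interval 2.40 to 6.26) but at low level, at 0.976 against 3.72 FPKM. Gzma, at 31.8 and 38.1, and Prf1, the gene of perforin, at 1.97 and 1.79, stayed within 2-fold. Over the 13 granule genes the median log2 change was 0.06, a sign that flips to −0.06 when both libraries are scaled to the same FPKM sum.

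Genes of naive or resting T cells leaned higher after TAM. Of 16, 13 were higher, against 5102 of 9503 protein-coding genes, with a median log2 change of 0.40. Only 1 of the 16 passed 2-fold. Bach2, a repressor that keeps T cells resting, had 2.76 FPKM untreated and 3.74 after TAM, and Ccr7, the receptor for entry into lymph nodes, 150.2 and 198. Klf2 had 159 against 230.5, Tcf7 55.2 against 76.7 and S1pr1, which lets T cells leave lymph nodes, 31.6 against 56.4. The levels after TAM were still below those of mosaic Brg1-deleted cells, where Bach2 had 7.56 FPKM and Ccr7 350.2. Dapl1 was the gene past 2-fold, with 10 and 28 reads, and the survival gene Bcl2 was level at 42.1 and 41.1 FPKM.

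Helper T cell cytokines leaned higher. Of 20, 9 were at least 2-fold higher after TAM and 1 at least 2-fold lower, against 2.80% and 2.21% of protein-coding genes, and the median log2 change was 0.65. By any size, 13 were higher and 7 lower, against 5102 higher and 4401 lower of 9503 protein-coding genes. The summed level of the full list of 25 was nearly the same, at 1260 FPKM untreated and 1256 after TAM. Of the members past 2-fold higher, 5 (Il5, Il3, Il2, Il21 and Il22) were under 1 FPKM untreated and were compared only because of their level after TAM. Il4, the signature cytokine of type 2 helper cells, was 4.04-fold higher (95% interval 3.47 to 4.71), at 10.1 against 40.7 FPKM. Csf2, which encodes GM-CSF, was 10.5-fold higher (95% interval 6.51 to 17.8), at 1.34 against 14.0, and Il5, the eosinophil growth factor, was 10.3-fold higher (95% interval 6.07 to 19.0), at 0.551 against 5.70. Il3 had 0 reads untreated and 21 after TAM and was at least 7.44-fold higher, taking 3 reads per library as the floor. These 4 genes lie in the same cytokine cluster of chromosome 11, Il4 at chr11:53602982-53618669, Il5 at chr11:53720794-53725106, Il3 at chr11:54265303-54267277 and Csf2 at chr11:54247271-54249667.

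Some cytokines outside the cluster were higher as well. Il2, the T cell growth factor that Foxp3 normally represses, was 8.60-fold higher (95% interval 4.58 to 17.8), at 0.543 against 4.67 FPKM. Il21 was 10.7-fold higher (95% interval 6.17 to 20.1), at 0.150 against 1.61, and Tnfsf8, the ligand of CD30, was 4.10-fold higher (95% interval 3.71 to 4.53), at 7.40 against 30.3. Il22 was at least 11.0-fold higher, with 0 and 31 reads. Ifng, the gene of interferon-γ, was 2.22-fold higher (95% interval 1.83 to 2.70), at 6.89 against 15.3 FPKM, but 25.9% of its exon bases overlap another gene and the kit does not mark strand. The same holds for 27.1% of Il5. Il9, Il13, Il17a, Il17f and Il24 stayed under 1 FPKM in both libraries. Lif was the cytokine past 2-fold lower, at 4.32 against 1.86. In the reexpressed library of the same mice, Il4 had 10.7, Csf2 2.38, Il5 0.0412, Il2 0.498 and Tnfsf8 4.08 FPKM, all below the GFP+ library.

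Of a list of chemokines, 3 of 14 kept members were 2-fold higher and none 2-fold lower, against 2.80% and 2.21% of protein-coding genes, and all 3 were under 1 FPKM untreated. By any size, 6 of the 14 were higher and 8 lower, with a median log2 change of −0.07. The list does not hold Ccl8, which was 3.04-fold lower (95% interval 2.68 to 3.45), at 115 against 37.9 FPKM. Ccl1 (chr11:82176657-82305690), the ligand of Ccr8, had the most positive log2 change at 5 FPKM or more outside the exocrine pancreas genes, at 0.977 against 19.7 FPKM with 41 and 778 reads, and was 20.2-fold higher (95% interval 14.7 to 28.3). It had 0.668 FPKM in the reexpressed, 0.0355 in the mosaic Brg1-deleted and 4.20 in the mosaic Brg1-sufficient library, all below the library after TAM. Ccl20 and Ccl17 were also higher but low, at 0.636 against 2.83 and 0.549 against 2.45 FPKM, while Ccl4 had 70.3 against 36.6. Among 19 receptors for chemokines and lipid mediators, 6 were 2-fold higher and none 2-fold lower, against 2.80% and 2.21% of protein-coding genes. Of these 6 receptors, 1 was under 1 FPKM untreated. Ltb4r1, the high affinity receptor of leukotriene B4, was 12.5-fold higher (95% interval 9.21 to 17.2), at 1.86 against 23.2 FPKM, above all 5 other libraries. Cxcr6, a receptor of tissue-resident T cells, was 3.63-fold higher (95% interval 3.35 to 3.95), at 21.9 against 79.6, and Cxcr4 was 3.19-fold higher (95% interval 2.35 to 4.38), at 1.78 against 5.68.

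Markers of other lymphocytes differed too. Of 5 γδ T cell genes that were kept, 3 were 2-fold higher, against 2.80% of protein-coding genes and 22 of 184 T cell receptor segments. Of the 3, 1 was under 1 FPKM untreated. The γ chain constant gene Tcrg-C1 led and was 6.09-fold higher (95% interval 4.82 to 7.77), at 5.13 against 31.2 FPKM. In the full list of 13, Tcrg-C3 and Tcrg-V6 had 0 reads after TAM, and Tcrg-V4 and Sox13 had 0 reads untreated. The list summed to 28.3 FPKM untreated and 59.6 after TAM, between 16.9 and 96.7 in the other 4 libraries. Of 6 kept CD8 T or NK cell markers, 3 were higher and 3 lower, with a median log2 change of 0.27. Ncr1, a receptor of NK and innate lymphoid cells, was 18.5-fold higher (95% interval 8.72 to 47.0), at 0.257 against 4.75, and Klrd1 was 6.11-fold higher (95% interval 2.86 to 14.99), at 0.353 against 2.15, both under 1 FPKM untreated. Cd8b1, a chain of CD8, had 4.19 against 6.52 FPKM. On the lower side, Fcgr3, an Fc receptor that macrophages also carry, had 14.2 against 7.61, Eomes 1.85 against 1.03 and Xcl1 27.3 against 25.8 FPKM. All 6 Klra receptors of the list had 0 reads in both libraries, and the list summed to 49.6 and 51.0 FPKM. The part of such cells in the cytokine values was not tested. In bulk samples, more cells of a type and more RNA per cell cannot be told apart.

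**Figure D3:**
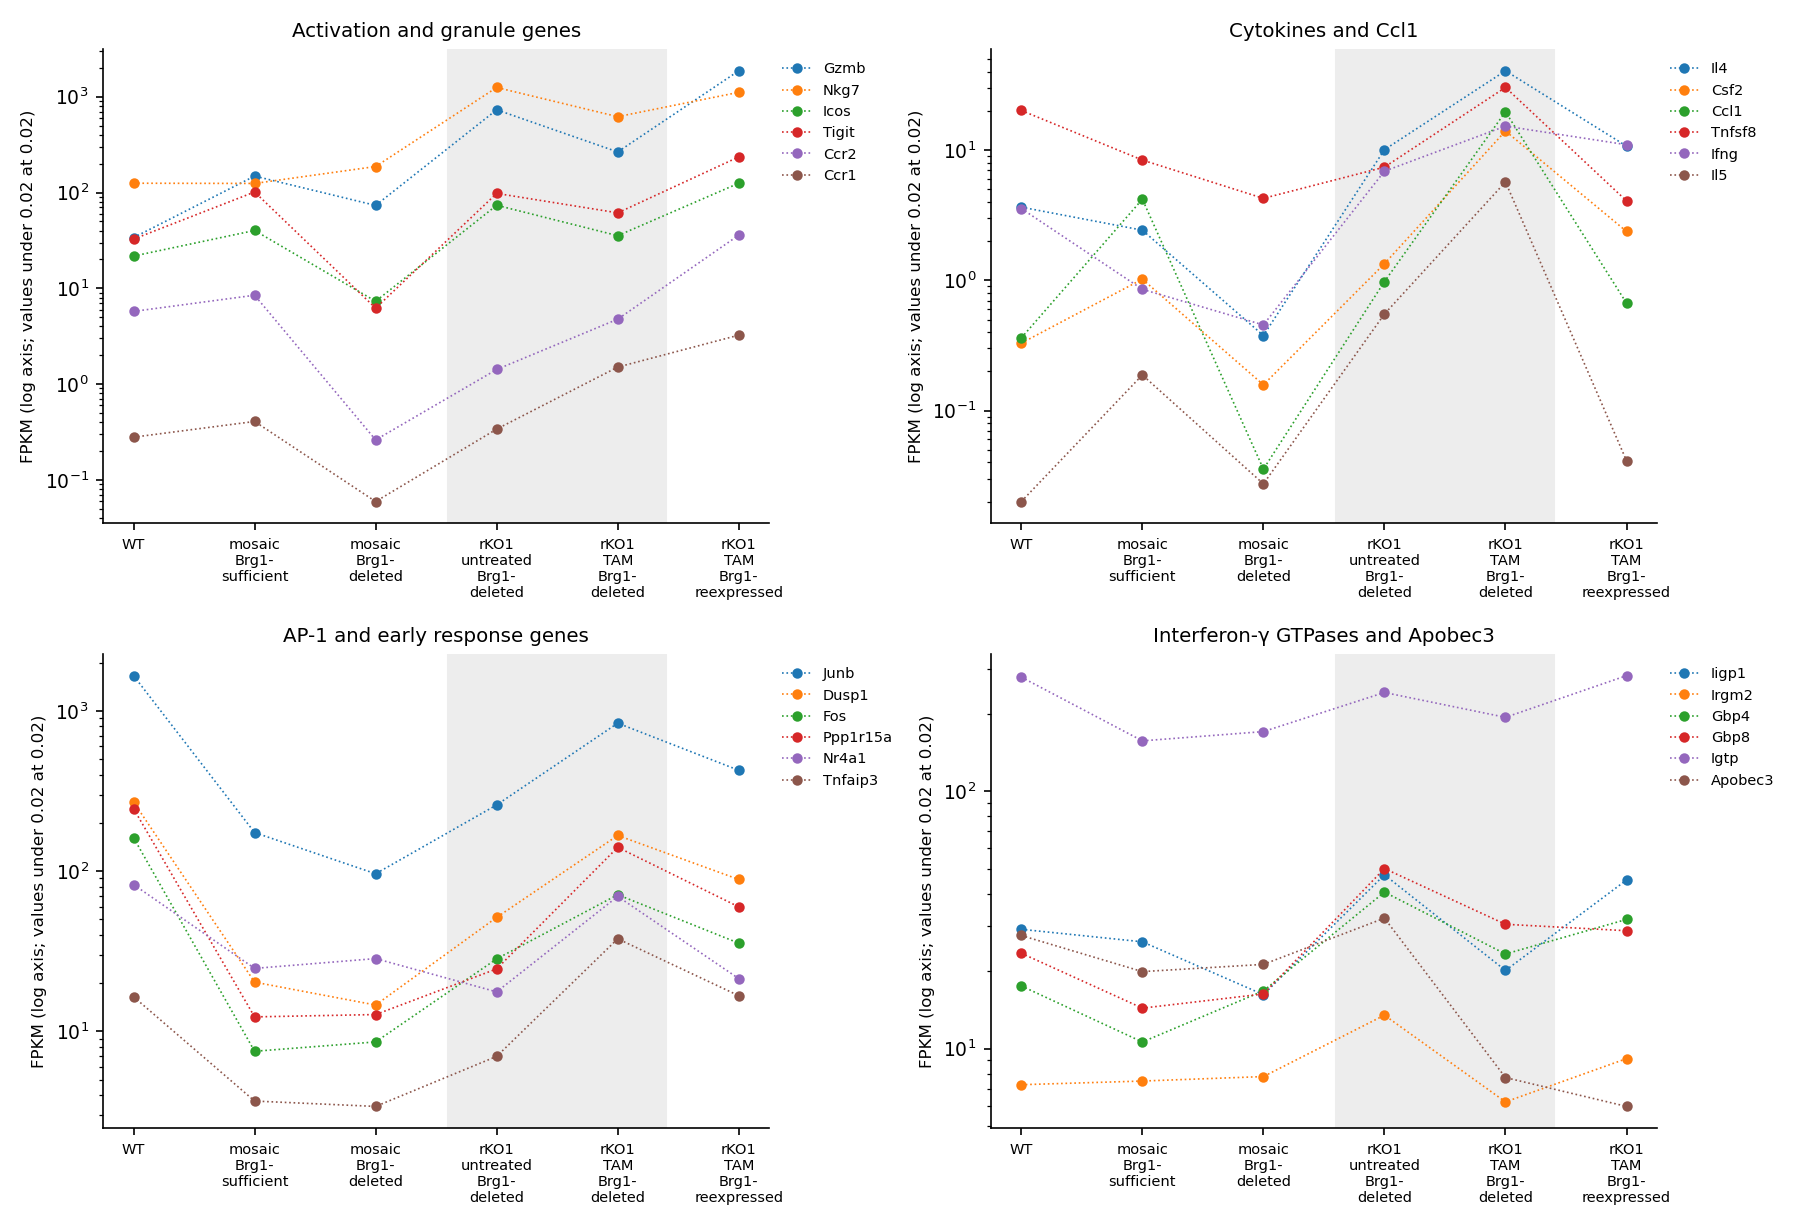
FPKM (log axes) of 24 genes in the 6 libraries of total Treg cells, 1 point per library; dotted lines only join the points of a gene, and the shaded pair is the comparison described here. Gzmb, Nkg7, Icos and the GTPases are lower after TAM than untreated, Ccr2, Ccr1, the cytokines and the AP-1 genes are higher, and Il4, Csf2, Ccl1, Tnfsf8, Ifng and Il5 are at their highest of the 6 in the library after TAM.

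Most of the immediate-early and heat shock genes of a list were higher after TAM. AP-1 is a dimer of Fos and Jun proteins that T cells and stressed cells induce within minutes, also during cell isolation. Of 20 AP-1, immediate-early and heat shock genes, 17 were higher, with a median log2 change of 0.70. At 2-fold, 7 were higher and none lower, against 2.80% and 2.21% of protein-coding genes. Of the 7, 3 were under 1 FPKM untreated and were compared only because of their level after TAM. Junb was 3.24-fold higher (95% interval 3.17 to 3.31), at 259 against 838 FPKM, Dusp1, a phosphatase of MAP kinases, 3.25-fold higher (95% interval 3.10 to 3.40), at 51.4 against 167, and Fos 2.51-fold higher (95% interval 2.35 to 2.69), at 28.4 against 71.3. Atf3 was 7.72-fold higher (95% interval 4.76 to 13.2), at 0.498 against 3.84. The 2 genes above 100 FPKM with the most positive log2 changes, in no list, were Ppp1r15a, which ends the translation block of stressed cells, at 24.6 against 141 FPKM, and Gadd45b, at 38.03 against 144. These genes also differed widely among the other libraries, with Junb at 1658 FPKM in WT and 96.3 in mosaic Brg1-deleted cells.

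Early response genes of the T cell receptor (TCR) were split. Of 24, 5 were 2-fold higher and 2 were 2-fold lower, against 2.80% and 2.21% of protein-coding genes, with a median log2 change of 0.35. Of the 5, 1 was under 1 FPKM untreated. Nr4a1, the gene of Nur77, was 3.94-fold higher (95% interval 3.64 to 4.27), at 17.6 against 69.5 FPKM, Nr4a2 6.77-fold higher (95% interval 4.90 to 9.57), at 0.598 against 4.05, and Tnfaip3, an inhibitor of NF-κB signalling, 5.41-fold higher (95% interval 5.04 to 5.82), at 6.99 against 37.8. The phosphatases Dusp4 and Dusp5 had 5.19 against 22.3 and 15.2 against 36.3. Egr2 and Egr3, zinc finger factors of the same response, were lower, at 13.9 against 6.64 and 5.38 against 2.59. Egr1 was also lower, within 2-fold, with a log2 change of −0.42. Nr4a1 and these Egr genes therefore lay on opposite sides.

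Lineage transcription factors and costimulatory receptors showed few 2-fold differences. Among 20 factors, Bhlhe40, a regulator of cytokine output in T cells, was 4.02-fold higher (95% interval 3.64 to 4.44), at 6.11 against 24.5 FPKM, and Nfil3 was 2.05-fold higher (95% interval 1.86 to 2.26), at 17.5 against 35.8. Pparg, the factor of tissue Treg cells, had 1.22 against 3.05. Myb was 2.06-fold lower (95% interval 1.87 to 2.28), at 8.07 against 3.91. Batf, Irf4, Prdm1, Tbx21 and Gata3 all stayed within 2-fold, with Tbx21, the gene of T-bet, at 8.22 and 6.01 FPKM. Of 20 costimulatory and coinhibitory receptors 14 were lower, against 4401 of 9503 protein-coding genes, with a median log2 change of −0.22. At 2-fold, 1 was higher and 1 lower, against 2.80% and 2.21% of protein-coding genes. Icos was the member past 2-fold lower, and Pdcd1, the gene of PD-1, the member past 2-fold higher, at 9.92 against 20.1. The abundant TNF receptors Tnfrsf4, Tnfrsf18 and Tnfrsf1b had 1390.0 against 981, 738 against 603 and 64.5 against 32.6 FPKM. Of 21 γ-chain cytokine receptor, JAK, STAT and SOCS genes none was 2-fold apart, with the most negative value in Socs1, at 283 against 200.2. Of 5 IL-1 family receptors none was 2-fold apart, Il18rap, a chain of the IL-18 receptor, at 4.59 against 2.38 and Il1rl1, the IL-33 receptor of tissue Treg cells, at 1.34 against 1.99.

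The GTPases that interferon-γ induces, which attack the vacuoles of pathogens, leaned lower. Of 18, 14 were lower, 2 of them by 2-fold, against 2.21% of protein-coding genes past 2-fold lower and 4401 of 9503 lower by any size, and the median log2 change was −0.52. Iigp1 was 2.35-fold lower (95% interval 2.19 to 2.53), at 47.4 against 20.1 FPKM, and Irgm2 2.17-fold lower (95% interval 1.92 to 2.46), at 13.5 against 6.21. Gbp4 had 40.6 against 23.3, Gbp8 50.1 against 30.4 and Igtp 242 against 194. Ifi47, Tgtp2, Gbp2b and Gbp10 were the members that were not lower, with Ifi47 at 58.8 and 60.8 FPKM. The Ifng transcript itself was higher after TAM, as given above. A list of macrophage genes, described below, summed to 520.1 against 269 FPKM, and its part in the GTPase values was not tested.

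The promoters of these genes are shown because most members lay on the same side. RefSeq promoters (GRCm38.p6) matched 11 of the 18 genes, and the 250 bases before the start site were searched on both strands. RefSeq and GENCODE place the start of Irgm2 15359 bases apart and that of Gbp5 2956. The core of the interferon-stimulated response element (ISRE; GAAA, any 2 bases, GAAA) was in 10 of 11, or 90.9%, against 3.03% of 7982 promoters of compared genes and 3.00% of 20594 promoters in all. The STAT site GAS (TTCNNNGAA) was in 6, or 54.5%, against 5.96% and 6.81%. The list was defined by induction through interferon-γ, so high shares of these sites may follow from how its members were chosen. The shares therefore cannot bear on the change after TAM. Iigp1, Gbp6, Gbp4, Gbp8, Gm4951, Gbp9 and Gbp10 had no entry. All matched members that were lower held the core. Ifi47, which was not lower, was the matched member without it, and Tgtp2 and Gbp2b, which were higher, held it. The promoters of the 4 matched members with the most negative log2 changes are printed 5′ to 3′, with matches to ISRE, GAS, AP-1 (TGANTCA) or NF-κB (GGGA, any base, TTTCC) in capitals. A match is a description of letters, not a bound site.
Irgm2, chr11:58214727-58214976, plus strand: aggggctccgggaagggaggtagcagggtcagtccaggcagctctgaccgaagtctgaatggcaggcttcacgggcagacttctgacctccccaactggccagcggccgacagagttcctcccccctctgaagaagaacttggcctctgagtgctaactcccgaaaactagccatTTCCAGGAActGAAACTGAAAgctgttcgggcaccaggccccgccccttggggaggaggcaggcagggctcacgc
Gbp5, chr3:142496684-142496933, plus strand: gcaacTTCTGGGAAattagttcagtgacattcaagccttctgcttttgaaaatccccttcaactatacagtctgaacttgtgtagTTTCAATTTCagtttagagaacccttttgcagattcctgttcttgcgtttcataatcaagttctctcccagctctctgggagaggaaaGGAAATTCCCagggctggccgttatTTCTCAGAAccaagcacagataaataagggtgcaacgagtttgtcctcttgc
Gbp7, chr3:142530086-142530335, plus strand: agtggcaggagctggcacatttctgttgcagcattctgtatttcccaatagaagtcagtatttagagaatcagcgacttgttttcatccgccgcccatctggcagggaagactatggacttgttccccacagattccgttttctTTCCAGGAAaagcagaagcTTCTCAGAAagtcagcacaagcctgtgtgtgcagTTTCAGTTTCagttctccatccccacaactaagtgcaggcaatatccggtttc
Gbp2, chr3:142620413-142620662, plus strand: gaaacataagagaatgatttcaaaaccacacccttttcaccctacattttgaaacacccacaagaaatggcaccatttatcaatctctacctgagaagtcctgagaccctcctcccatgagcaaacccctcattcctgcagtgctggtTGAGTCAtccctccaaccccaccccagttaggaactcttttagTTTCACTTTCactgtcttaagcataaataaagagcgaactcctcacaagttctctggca
In Irgm2 a GAS match began 75 bases before the start site and the ISRE core 64 bases before it, in Gbp7 GAS matches stood at 106 and 87 bases with the core at 53, and in Gbp2 the core stood at 59 bases with an AP-1 match at 102. Gbp5 held GAS matches at 245 and 52 bases, the core at 165 and an NF-κB match at 77. The promoter of Gzmb, shown because this gene had the most negative log2 change of the activation list, held 1 AP-1 match, 58 bases before the start site, a motif found in 3.81% of promoters of compared genes.
Gzmb, chr14:56262335-56262584, minus strand: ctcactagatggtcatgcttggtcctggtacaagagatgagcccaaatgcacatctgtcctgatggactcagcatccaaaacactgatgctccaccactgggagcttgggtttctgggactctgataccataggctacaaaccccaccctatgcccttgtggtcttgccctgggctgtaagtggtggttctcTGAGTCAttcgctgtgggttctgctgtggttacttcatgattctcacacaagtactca

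Antiviral interferon-stimulated genes showed no common direction past 2-fold. Of 28, 19 were lower, against 4401 of 9503 protein-coding genes, with a median log2 change of −0.25. At 2-fold, 1 was higher and 1 lower, against 2.80% and 2.21% of protein-coding genes. The higher gene was Ifit1bl1, at 0.571 against 2.27 FPKM, which was compared only because of its level after TAM. Apobec3 (chr15:79891659-79915906), a cytidine deaminase that restricts retroviruses, had the most negative log2 change of the list and was 4.16-fold lower (95% interval 3.85 to 4.503), at 32.1 against 7.72. Its neighbours Cbx7 (chr15:79915807-79971119) and Cbx6, both Polycomb proteins, were 3.53-fold lower (95% interval 3.14 to 3.97) and 2.25-fold lower (95% interval 1.92 to 2.65). Dnal4, at 5.50 against 7.33 FPKM, and Rpl3, at 245 against 241, which flank them, were not 2-fold apart. The reexpressed library from the treated mice was low as well, with Apobec3 at 5.97 and Cbx7 at 1.18 FPKM, whereas WT and mosaic libraries had Apobec3 between 19.9 and 27.5. These neighbours were chosen after their values were seen. Strain background at this locus was not tested. None of 19 class I presentation genes was 2-fold apart, with the most negative value in the transporter Tap1, at 74.2 against 46.7.

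Cell cycle genes were higher in most cases, few of them past 2-fold. Of 29 mitosis genes 28 were higher, against 5102 of 9503 protein-coding genes, with a median log2 change of 0.52. Of 27 genes of G1/S and replication 24 were higher, with a median of 0.50. Only 2 and 2 passed 2-fold (Nuf2 and Cdc25c, and Cdc45 and Ccne2), against 2.80% of protein-coding genes. Nuf2 and Cdc25c were under 1 FPKM untreated. When both libraries were scaled to the same FPKM sum, 0 genes of either list passed 2-fold. Rrm2, a subunit of ribonucleotide reductase, had 14.7 against 29.1 FPKM, Cdc45, a part of the replicative helicase, 4.64 against 9.43, and the kinetochore gene Nuf2 0.882 against 1.94. Top2a was the mitosis gene that was lower, at 9.95 against 8.57. Levels in the reexpressed library were higher still, with Rrm2 at 132 FPKM and Nuf2 at 8.21. Of 38 replication-dependent histone genes, 8 were 2-fold higher and 3 were 2-fold lower, against 2.80% and 2.21% of protein-coding genes. The histone counts became 5 and 4 when both libraries were scaled to the same FPKM sum. The most abundant, Hist1h2ao, had 138 against 443 and Hist1h2ai 1.15 against 8.70, but these near-identical copies share reads and single members are uncertain.

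Among housekeeping groups, 72 of 78 ribosomal protein genes were higher, against 5102 of 9503 protein-coding genes. None was higher by 2-fold, and their median log2 change was 0.25. Scaled to the same FPKM sum, that median became 0.12. Rplp0 had 485 against 858 FPKM. Of 83 nuclear genes of oxidative phosphorylation 62 were higher, against the same 5102 of 9503, with a median of 0.15, or 0.03 when scaled to equal FPKM sums. Cox6b2 was 2.08-fold lower (95% interval 1.74 to 2.50). Of 13 protein genes of the mitochondrial genome 6 were higher and none was 2-fold apart. Of 17 genes of cholesterol and fatty acid synthesis 3 were 2-fold higher, against 2.80% of protein-coding genes. They were Cyp51 at 1.61 against 4.40, Idi1 at 0.999 against 2.53 and Insig1 at 1.497 against 3.40 FPKM. In glycolysis, Eno1 was 2.11-fold higher (95% interval 2.04 to 2.17), at 69.9 against 147, and Pdk1, a kinase that shuts pyruvate out of mitochondria, was 2.45-fold lower (95% interval 2.19 to 2.74), at 8.38 against 3.43. Gapdh had 5.88 against 2.31 FPKM, but it has many near-identical copies in the genome and its value is uncertain. The median of that list was 0.08 and turns to −0.04 when both libraries are scaled to the same FPKM sum. The glucocorticoid-induced genes past 2-fold higher, 3 of 10 against 2.80% of protein-coding genes, were Dusp1, Cxcr4 and the clock gene Per1, at 2.66 against 5.78. Fkbp5 and Sgk1 did not pass it, at 13.8 against 14.3 and 3.12 against 4.64 FPKM.

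**Figure D4:**
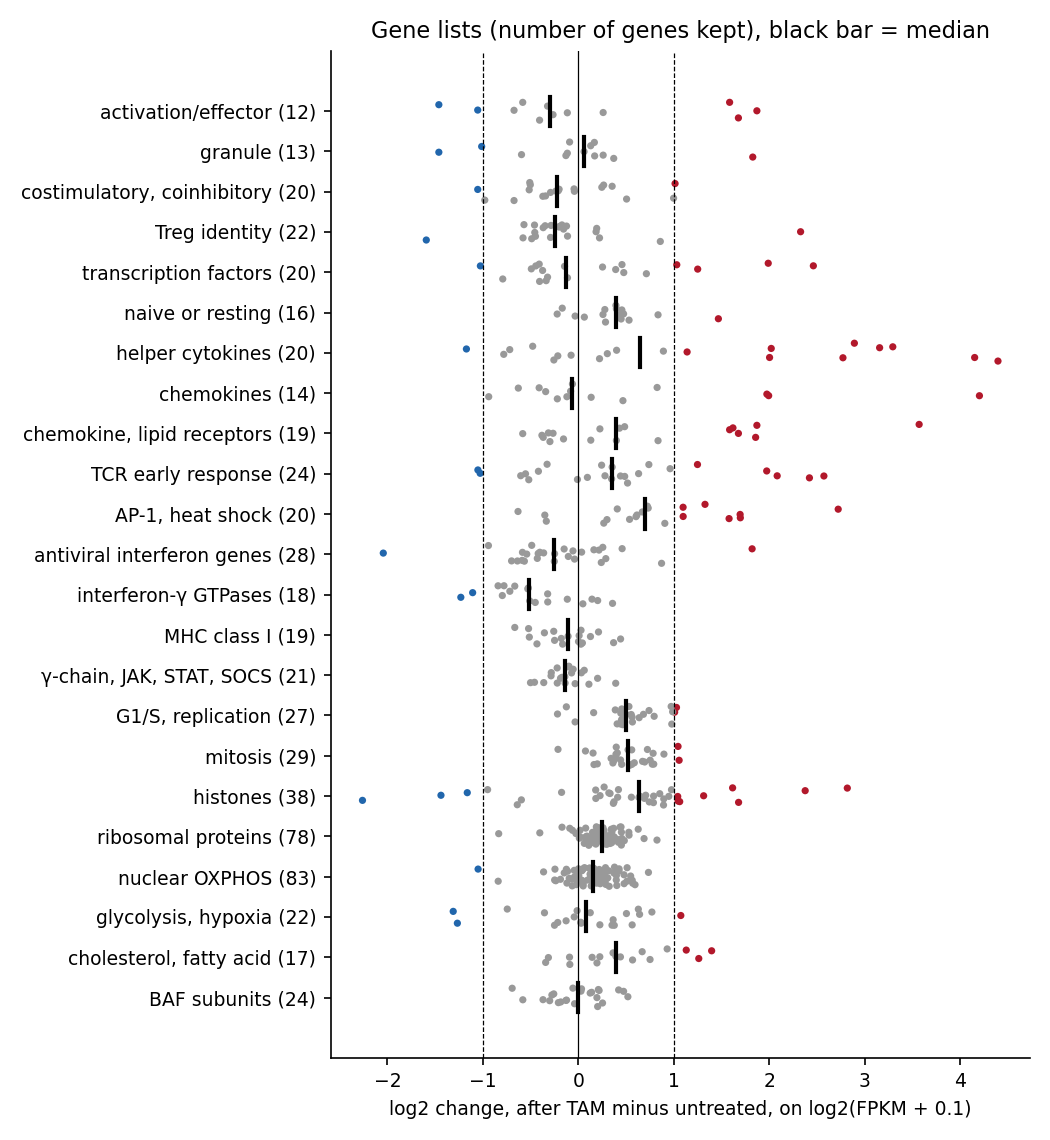
Log2 change after TAM minus untreated (x axis, on log2 of FPKM + 0.1) for the genes of 23 lists (y axis, number of genes kept in brackets), 1 point per gene, red at 2-fold higher, blue at 2-fold lower; the black bars are medians. Helper cytokines and AP-1 genes have medians of 0.65 and 0.70, the interferon-γ GTPases −0.52.

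Genes of other cell types made up many of the largest values. A list of 24 exocrine pancreas genes, drawn up after the values were seen, was nearly silent in the untreated library, where 16 had 0 reads, and present after TAM, where none had 0. Try4, a trypsinogen, had 0 and 100 reads and was at least 35.4-fold higher, Clps, the colipase, was at least 22.3-fold higher and Try5 at least 31.9-fold higher. Ctrb1, a chymotrypsinogen, had 1 and 115 reads, and Prss2, a trypsinogen, 10 and 159 reads, ratios with 95% intervals of 21.5 to 4868 and 8.95 to 35.9. Without Cela1, all 23 genes were higher, and they summed to 1.26 FPKM untreated, 64.9 after TAM, 51.1 in the reexpressed library, 130.3 and 129.7 in the mosaic libraries and 8.85 in WT. Cela1, an elastase with reads in every library, had 134 against 80.7.

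Macrophage genes were lower. In a list of 20, also drawn up after the values were seen, all 18 kept genes were lower after TAM. Of these, 10 were 2-fold lower, against 2.21% of protein-coding genes. The list summed to 520.1 FPKM untreated and 269 after TAM. Marco, a scavenger receptor, was 3.41-fold lower (95% interval 2.75 to 4.27), Ccl8 3.04-fold lower (95% interval 2.68 to 3.45), at 115 against 37.9 FPKM, and Fcgr4 2.55-fold lower (95% interval 2.14 to 3.05), at 21.6 against 8.46. Pla2g7, a phospholipase, had 5.27 against 1.59 and Spic, the factor of red pulp macrophages, 7.50 against 3.06. The mosaic libraries had sums of 46.6 and 37.0 FPKM. Of the 16 kept genes of the broader myeloid list 12 were lower, against 4401 of 9503 protein-coding genes. S100a8 and S100a9, which neutrophils express, were higher, at 4.07 against 16.6 and 4.87 against 19.2. Neutrophil genes did not share a direction, since Elane and Camp of the same list were lower, with log2 changes of −1.81 and −0.73.

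Immunoglobulin transcripts differed by single segments. Of 92 segments 15 were 2-fold higher and 47 were 2-fold lower. Immunoglobulin and TCR segments together were 2-fold apart in 37.0% of 276, against 5.01% of protein-coding genes, and those apart had a median of 14 reads in the larger library. Igkv3-7 had 239 and 0 reads and Igkv14-111 50 and 247 reads, so different κ chain segments led in each library. Ighg1, the IgG1 constant gene, was 3.75-fold lower (95% interval 3.44 to 4.09), at 56.6 against 15.1 FPKM, Ighe was 8.58-fold lower (95% interval 5.71 to 13.4) and Ighg2b was 3.78-fold higher (95% interval 3.12 to 4.60). Over all segments the reads came to 0.109% of the untreated library and 0.0666% of the library after TAM. Pax5, the factor that defines B cells, had 0 reads in the untreated library, and none of 8 kept B cell markers was 2-fold apart. Of 184 TCR segments 22 were 2-fold higher and 18 were 2-fold lower, against 2.80% and 2.21% of protein-coding genes. The plasma cell list summed to 604 and 418 FPKM. Of 15 erythroid and platelet markers 3 were 2-fold higher and 1 was 2-fold lower, against the same 2.80% and 2.21%. Of the 3, 2 were under 1 FPKM untreated. Of 5 thymocyte genes that were kept, 1 was 2-fold higher, against 2.80%, and it was under 1 FPKM untreated. Rag2 and Ptcra, which define thymocytes, had 0 reads in both libraries. The part of these cells in the other results was not tested. Leaving all marker, pancreas, macrophage and early response genes out changed the counts of 2-fold genes to 583 higher and 728 lower.

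**Figure D5:**
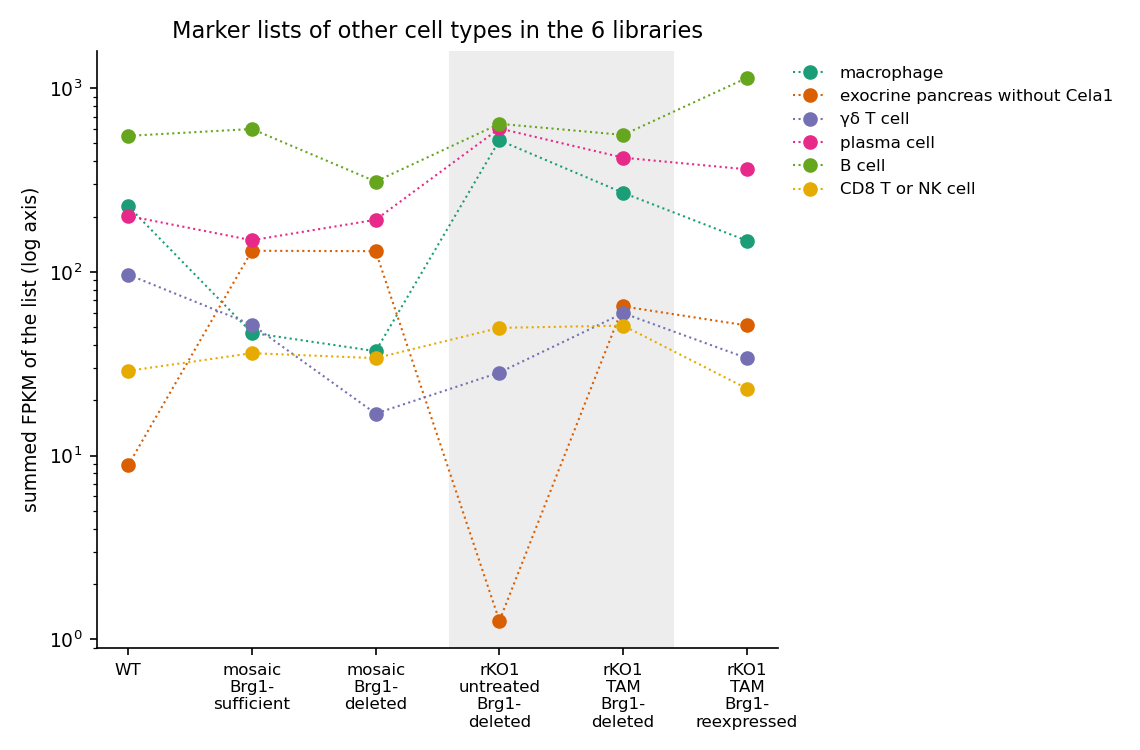
Summed FPKM (log axis) of 6 marker lists of other cell types in the 6 libraries of total Treg cells, 1 point per library and list; dotted lines only join points, and the shaded pair is the comparison described here. Pancreas genes go from 1.26 to 64.9 and macrophage genes from 520.1 to 269 FPKM between the shaded libraries.

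The other genes with the largest differences at 5 FPKM or more belonged to no single group. Higher after TAM were Akr1c18, which inactivates progesterone, at 0.655 against 7.66 FPKM and Ifitm1, an interferon-induced membrane protein, at 2.74 against 25.7. Rgs2, a brake on G protein signals, was 6.61-fold higher (95% interval 5.99 to 7.32), at 7.04 against 46.5. Krt83 and Igfbp7 had 0.583 against 5.35 and 2.48 against 15.6. Akr1c18, Ifitm1, Krt83 and Igfbp7 were at their highest of the 6 libraries there. Lower were Gstt1, a glutathione transferase, 5.86-fold lower (95% interval 3.99 to 8.86), at 7.13 against 1.22, and H2-M2, a class Ib gene, 3.64-fold lower (95% interval 2.85 to 4.70), at 11.5 against 3.17. Pheta2 was lower at 5.17 against 1.52, Myl6b, a myosin light chain, at 5.32 against 1.72 and Prg2, the major basic protein of eosinophils, at 5.32 against 1.58. Gstt1 and H2-M2 were higher in the untreated library than in all 5 others, at most 1.37 and 3.17 FPKM. Gm11127 was 20.0-fold lower (95% interval 9.92 to 47.1), but 52.8% of its exon bases lie in another gene. Gm17571, Gm17490 and Gm15056 were lower as well, with 48 and 11 reads, 8 and 2 reads and 126 and 39 reads. Above 100 FPKM, Gm11361 and the pseudogene Gm29216 were lower, at 398 against 172 and 154 against 63.2, and may share reads with near-identical copies. Wfdc17 had 119 against 45.8.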

How the data were processed

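RNA of total Treg cells was amplified with a SMART-Seq v4 kit, which does not mark strand. The submitters' processing notes name HISAT2 2.0, StringTie 1.3.3b, featureCounts 1.5.0-p3 and build mm10. The annotation release is not given in the sources used here. The authors deposited FPKM per gene in each library, with library totals already scaled. Here, whole reads were recovered from these FPKM values and GENCODE M21 exon lengths, within 0.02 of a whole number for 93.3% of 26057 genes with reads. A further 5.87% took their length from the values and 0.825% stayed unresolved. Intervals are exact binomial (Clopper-Pearson) intervals of these reads from SciPy 1.17.1, and at 0 reads a floor of 3 reads per library was used. Depth as recovered reads is given above. Genes at 1 FPKM or more in either library outside X and Y were called at 2-fold on FPKM + 0.1. Scripts (Python 3.11.15) were tested on simulated data. The pair, the 33 gene lists and their members were chosen with earlier results of these data known, and 3 further lists (pancreas, macrophage, Apobec3 neighbours) after the values were seen. Genes named were the activation genes, the 15 most positive and 15 most negative log2 changes of protein-coding genes at 5 FPKM or more, those above 100 FPKM with the largest differences, and up to 4 members past 2-fold each way of each list. Other members named were chosen after their values were seen, and some genes that the rule names are not reported here. The 2 aTreg libraries were not used.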

Additional observations from a re-analysis of the deposited data

Results flagged for a closer look

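The Y-linked genes Eif2s3y, Ddx3y, Uty and Kdm5d lie outside the genes compared. They summed to 4155 reads in the untreated library and to 2083 reads in the library after TAM, 1416 in the reexpressed library, and 0 in the WT library and in both mosaic libraries. Both rKO1 libraries carry the female form of the Foxp3 YFP-Cre genotype in their labels. The reads could not be tied to single animals, since the number and sex of the animals in each library were not given in the sources used here.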

How the results depend on the processing

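No paired analysis was possible because each condition has 1 library, and for the same reason leaving out a replicate could not be done. The 622 genes at least 2-fold higher and the 745 at least 2-fold lower became 336 and 352 with a pseudocount of 1 FPKM, 164 and 161 at 5 FPKM or more in either library, 219 and 254 at 1 FPKM or more in both, 1902 and 2157 with no filter, and 233 and 261 with recovered reads scaled by TMM at 5 CPM or more. They became 197 and 184 where the 95% interval had to lie wholly beyond 2-fold, 266 and 210 for protein-coding genes and, in a setting chosen after seeing the data, 257 and 300 at 50 reads or more. Scaling to equal FPKM sums gave 472 and 870 and scaling reads by their total gave 483 and 853, which turns a balance near equal into a majority of lower genes. A pseudocount of 0.01 FPKM, centring, keeping X and Y, leaving out overlapping genes, leaving out immunoglobulin and TCR segments, and leaving out marker genes (chosen after seeing the data) kept both counts within 1.5 times. Of the 730 named genes none at 2-fold changed sign, but 34 of those at 2-fold came under it with a pseudocount of 1 FPKM and 14 each with equal FPKM sums and with reads scaled by total, while 51 smaller values changed sign with equal FPKM sums and 43 with reads scaled by total. The medians of the granule and glycolysis lists changed sign under both. In the other pairs, WT against mosaic Brg1-sufficient gave 1068 with a pseudocount of 1 FPKM, 694 at 5 FPKM and 850 protein-coding genes in place of 1778. Untreated rKO1 against mosaic Brg1-deleted gave 1646, 1026 and 1445 in place of 2598, and reexpressed against deleted after TAM gave 1243, 838 and 1147 in place of 2176. The depth limits genes with few reads most, and no setting stands in for a second library of either condition.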

Other observations

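Ly6a, which encodes Sca-1, a surface protein that activated T cells carry, was 2.61-fold higher (95% interval 2.50 to 2.72), with 144 FPKM untreated and 374 after TAM. Its level was 714 in WT, 538 in mosaic Brg1-sufficient, 18.5 in mosaic Brg1-deleted and 955 in Brg1-reexpressed cells. The gene is in none of the lists and was chosen after its values were seen.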
